A study of Mus musculus with 2 samples.

Results

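Collagen genes encode the chains of the triple-helical proteins that build the extracellular matrix. Every gene row named Col, a number, a and a number in either library was taken as a member, which gave 43 of 29809 genes, all 43 with a row in both libraries. The cells came from the microdissected arcuate nucleus and median eminence, at the base of the hypothalamus, of CD-1 mice aged 7 to 8 weeks. One Drop-seq library pooled 7 wild type mice and the other pooled 5 mice heterozygous for Irx3 and Irx5 together (Irx3/5+/-), a pair of homeobox transcription factors. Live cells were sorted before capture, and by its title the series is about neurogenesis after birth and sensitivity to leptin. The questions here are which class of cell uses each chain, and how the 2 libraries compare.

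Collagen chains wind into a triple helix, so a collagen type is set by which chains a cell makes together. Fibril-forming types I, III and V give connective tissue its tensile strength, type IV forms the sheet of basement membranes around vessels and beneath epithelia, and type VI forms beaded microfilaments next to cells. Fibril-associated collagens decorate fibrils, and transmembrane collagens stay anchored in the plasma membrane until their ectodomain is cut off. In the median eminence, tanycytes, the radial glia that line the floor of the ventricle, send processes to a vascular bed with a perivascular space that fibroblasts share.

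Filters of 300 or more genes per cell and no more than 20% mitochondrial counts kept 2405 wild type and 1484 double heterozygote cells, holding 4282490 and 2862026 unique molecular identifiers (UMIs, 1 per captured transcript). The median cell had 1274 and 1160.5 UMIs. Cells fell into 20 clusters, called fibroblast-like, mural-like and so on from marker genes, with every collagen left out of the clustering and of the markers; the word "like" is dropped from here on. Defining genes of the labelled tissue were present: Pomc, Agrp with Npy, and Kiss1 with Tac2 were among the leading genes of 3 neuron clusters, and the tanycyte gene Rax among those of a tanycyte cluster. Irx3 had 31 and 15 UMIs in all used cells and Irx5 had 16 and 6. The double heterozygote over wild type ratio was 0.724 (0.363 to 1.38) for Irx3 and 0.561 (0.180 to 1.51) for Irx5, and both intervals hold 1. Libraries shared 3 barcode sequences, 1 of them among the used cells. A genotype is 1 pool with no map from cells to mice, so there is no replicate, no test and no p-value. Bracketed ranges are exact intervals at 95% for counting error only.

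Fibroblasts held the highest collagen share of their UMIs in both libraries. Levels are in CPM, the UMIs of a chain per 1000000 UMIs of the class. Values are given for wild type and then for the double heterozygote throughout. All 43 chains summed came to 6463 CPM (6101 to 6840.1) in 155 wild type fibroblasts and 8397 CPM (7911 to 8905) in 123 double heterozygote ones. Tanycytes, a glial class, stood at 1658 CPM (1556 to 1763) in 372 cells and 2122 CPM (1912 to 2349.9) in 147 cells. Their 2 clusters, described further on, differed, at 2975 and 3326 CPM in the one that holds Dio2 and 906 and 876 CPM in the larger one led by Crym. Mural cells, the contractile cells of vessel walls, stood at 1264 CPM (1034 to 1530.1) in 74 cells and 1560.1 CPM (1227 to 1956) in 58. Endothelial cells, which line the vessels, gave 736 CPM (485 to 1071) in 40 cells and 2614 CPM (1764 to 3732) in only 13 cells, where 11 of the 30 collagen UMIs came from 1 cell. Oligodendrocyte precursors gave 635 CPM (555 to 722) in 255 cells and 329.6 CPM (217 to 479.6) in 78. Ependymal cells, in which 1 of 2 groups was led by cilium genes, gave 791 CPM (692 to 900.1) and 561 CPM (451 to 691). Neurons were lower, at 227 CPM (207 to 249.7) in 824 cells and 174 CPM (156 to 194) in 709 cells. At least 1 collagen UMI was read in 98.7% and 99.2% of fibroblasts and in 31.1% and 28.6% of neurons, at median depths of 1051 and 944 UMIs per fibroblast and 1565.5 and 1762 per neuron. Oligodendrocytes, the myelin-forming cells, had a collagen UMI in 14.4% and 12.7% of cells, at median depths of 1303 and 1136 UMIs. They are given as a class not known for making collagen, and not as a floor for other classes. Of their 46 and 27 collagen UMIs, 1 and 2 were of Col1a2, 0 and 1 of Col1a1 and 0 and 1 of Col3a1. Whether their UMIs came from free RNA was not tested. Oligodendrocyte collagen summed to 101 CPM (73.8 to 134) and 152 CPM (100.2 to 221), and in the double heterozygote this interval overlaps that of neurons. However, 10 of those 27 double heterozygote UMIs came from 1 cell, and the overlap was not examined without it.

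**Figure D1:**
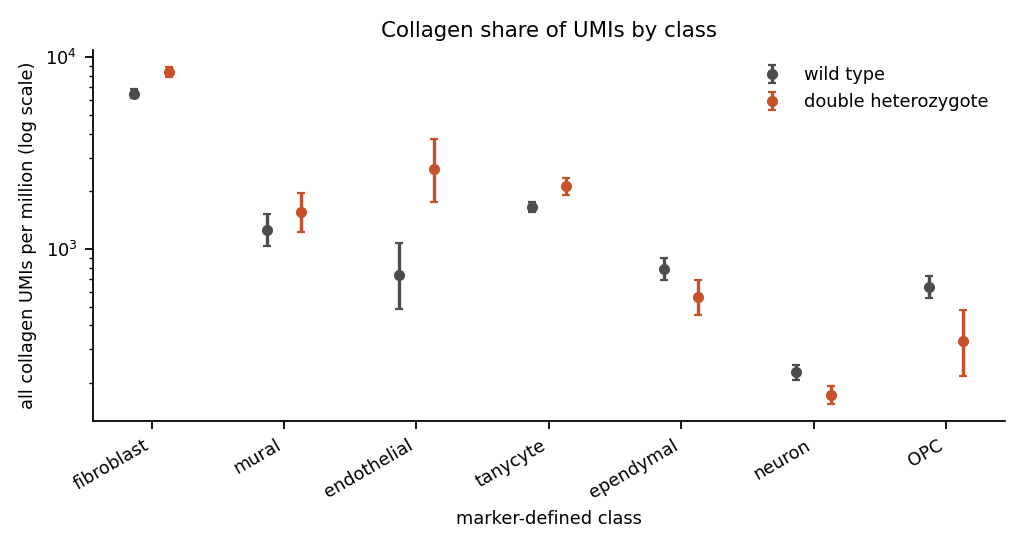
Summed UMIs of all 43 collagen chains per 1000000 UMIs of each class, on a log axis, for wild type (grey) and double heterozygote (orange); bars are exact 95% Poisson intervals of the count. Fibroblasts are highest and neurons lowest of the classes drawn, and the wide bar of the double heterozygote endothelial class rests on 30 UMIs.

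The libraries drew their collagen UMIs from different mixes of cells. Fibroblasts supplied 35.4% and 53.0% of all collagen UMIs. Tanycytes supplied 29.7% and 17.6%. Tanycytes made up 15.5% and 9.91% of the used cells, fibroblasts 6.44% and 8.29%. For Col23a1, the ratio of double heterozygote over wild type CPM was 0.457 (0.383 to 0.542) over all used cells, whereas within tanycytes it was 0.976 (0.794 to 1.19). Levels are therefore compared within classes below.

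Of the 43 chains, 30 reached 20 UMIs over all used cells and are called measured, with 21 to 894 UMIs each. The other 13 had 3 to 19 UMIs and together 139 of the 5474 collagen UMIs. The class of highest CPM was the same in both libraries for 23 of the 30 measured chains. It was the fibroblast class for 16, tanycytes for 2, oligodendrocyte precursors for 2, and the ependymal, endothelial and microglia classes for 1 each. The share of all genes led by each class is not given here, so these counts describe the chains only. In a small class 1 UMI can be enough to lead. No measured chain was led by neurons or by mural cells in both libraries. For 5 chains the interval of the leading class lay above those of all other classes in both libraries: Col1a1, Col1a2 and Col3a1 in fibroblasts, and Col23a1 and Col25a1 in tanycytes. Setting aside the 13 double heterozygote endothelial cells and their wild type counterparts was a step not planned beforehand. Col4a5, Col6a1, Col6a2 and Col13a1 then joined the fibroblast chains, which made 7 chains in fibroblasts and 2 in tanycytes. Because reads come from transcript 3′ ends, one chain's CPM is compared across classes and not with another chain's.

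**Figure D2:**
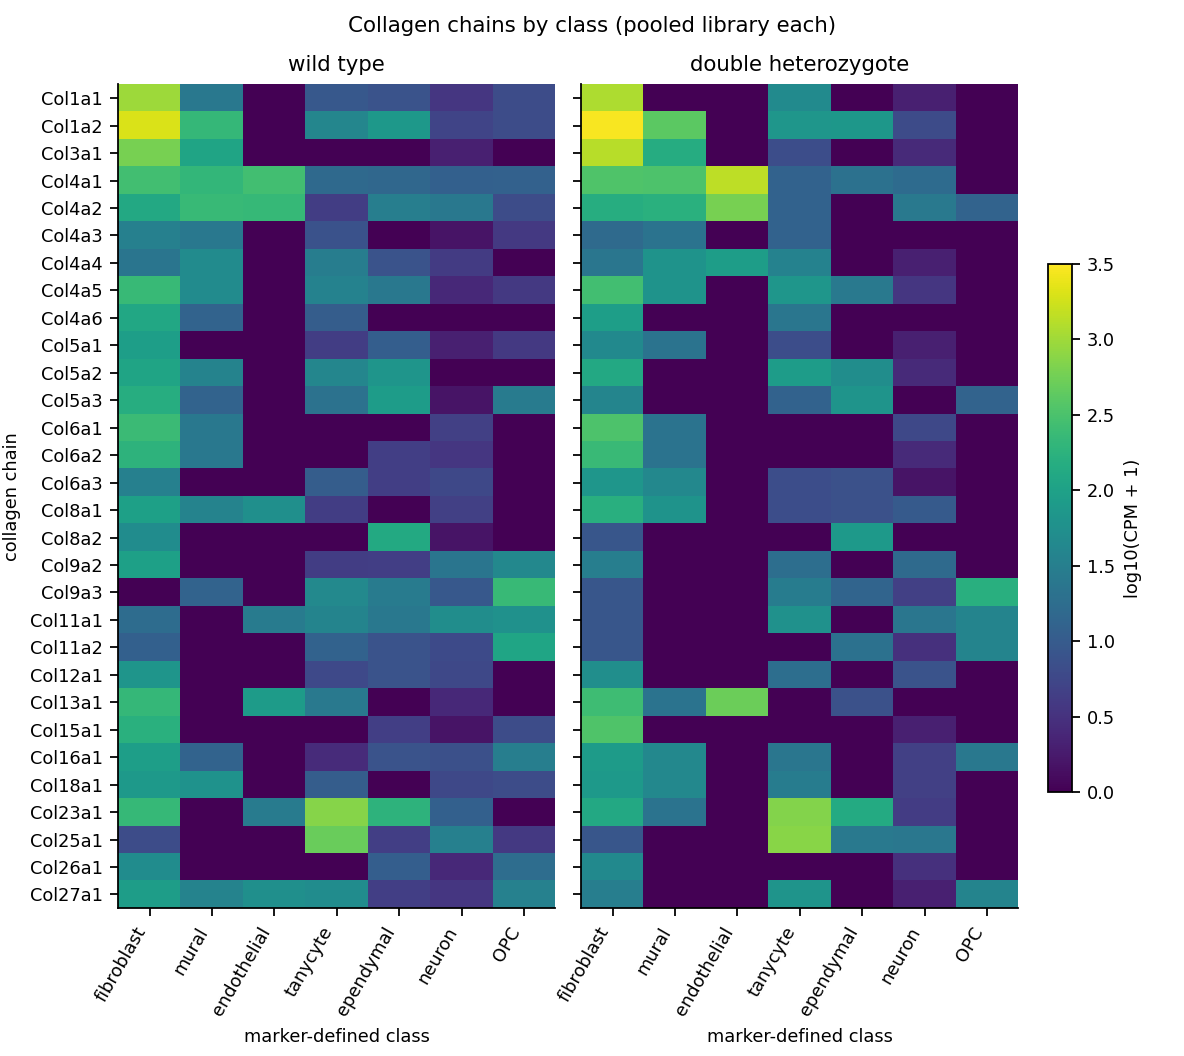
Level of the 30 measured chains, as log10 of CPM plus 1, in 7 classes of the wild type library (left) and the double heterozygote library (right); OPC stands for oligodendrocyte precursor. The fibroblast column is filled for nearly every chain, Col23a1 and Col25a1 are bright in tanycytes, Col9a3 and Col11a2 in precursors, and Col8a2 in ependymal cells.

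Types I and III, the main fibril collagens of loose connective tissue, were fibroblast transcripts. Col1a1 (ENSMUSG00000001506, plus strand of chromosome 11, 94936224 to 94953042, GRCm38), the alpha 1 chain of type I, had 179 and 157 UMIs in fibroblasts, or 969 CPM (832 to 1122) and 1183 CPM (1006 to 1384). Col1a2 (ENSMUSG00000029661, plus strand of chromosome 6, 4504814 to 4541544), which supplies the other chain of the type I trimer, had 372 and 385 UMIs, or 2014 CPM (1814 to 2229) and 2902 CPM (2619 to 3207). Col3a1 (ENSMUSG00000026043, plus strand of chromosome 1, 45311538 to 45349706), the only chain of type III, had 110 and 176 UMIs, or 595 CPM (489 to 718) and 1327 CPM (1138 to 1538). Fibroblasts held 91.3% and 93.5% of all Col1a1 UMIs, 82.9% and 86.5% of Col1a2 and 90.9% and 93.6% of Col3a1. Mural cells came next for Col1a2, at 217 CPM (128 to 342) and 416 CPM (254 to 643), and for Col3a1, at 108 CPM (49.5 to 206) and 146 CPM (58.5 to 300.01). Within fibroblasts, a UMI of both type I chains was read in 79 of 155 cells and in 71 of 123.

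In ependymal and mural cells Col1a2 came with far fewer Col1a1 UMIs than in fibroblasts. Over both libraries, fibroblasts had 757 Col1a2, 336 Col1a1 and 286 Col3a1 UMIs. The 288 ependymal cells had 32 Col1a2 UMIs with 2 of Col1a1 and 0 of Col3a1. Per 100 Col1a2 UMIs that is 6.25 of Col1a1, against 44.4 in fibroblasts, 5.26 in mural cells and 36.1 in tanycytes. Leaving out cells with at least 3 UMIs of the fibroblast proteoglycan Dcn, a step chosen after the values were seen, kept 30 of those 32. The 132 mural cells had 38 Col1a2, 2 Col1a1 and 16 Col3a1 UMIs, and 33, 2 and 11 without the Dcn cells. The 519 tanycytes had 36, 13 and 1, and the 390 oligodendrocytes had 3, 1 and 1. No test of these proportions was run.

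The minor fibril chains were spread more widely. Type V chains join type I fibrils and limit their diameter. Col5a1 was led by fibroblasts, with 17 and 6 of its 26 and 10 UMIs there, and so was Col5a2, with 20 and 17 of 70 and 44. Col5a2 was also read in tanycytes, at 39.7 and 86.04 CPM, and in ependymal cells, at 65.1 and 50.5 CPM. Col5a3 was highest in wild type fibroblasts, at 152 CPM (101 to 219), but in double heterozygote ependymal cells, at 63.1 CPM (30.2 to 116). Type XI chains, best known from cartilage fibrils, appeared in the neural classes. Col11a1 (ENSMUSG00000027966, plus strand of chromosome 3, 114030540 to 114220718) had 99 and 43 neuronal, 22 and 10 tanycyte and 21 and 3 precursor UMIs. By CPM, precursors led in wild type and tanycytes did in the double heterozygote. Col11a2 (ENSMUSG00000024330, plus strand of chromosome 17, 34039437 to 34066685) was led by precursors in both, at 114 CPM (81.5 to 154) and 36.6 CPM (7.55 to 107), the second value from 3 UMIs. Col27a1, a large fibril chain of cartilage, was highest in microglia and macrophages, at 173 CPM (103 to 273) and 103 CPM (33.4 to 239.8) from 18 and 5 UMIs, with 30 and 11 UMIs in tanycytes.

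Type IV was shared between endothelial, mural and fibroblast cells. Col4a1 (ENSMUSG00000031502, minus strand of chromosome 8, 11198423 to 11312826) and Col4a2 (ENSMUSG00000031503, plus strand of chromosome 8, 11312805 to 11449287) form the network found in all basement membranes, and their annotated 5′ ends overlap head to head by 22 bases. Col4a1 stood at 273 CPM (131 to 501) and 1394 CPM (797 to 2264) in endothelial cells, 271 CPM (201 to 357) and 339 CPM (247 to 454) in fibroblasts and 205 CPM (119 to 328) and 333 CPM (190.2 to 540.5) in mural cells. In wild type these 3 intervals overlap. Col4a2 stood at 218 and 610.0 CPM in endothelial, 229 and 166 CPM in mural and 129.9 and 151 CPM in fibroblast cells. Neurons had 47 and 47 Col4a2 and 21 and 30 Col4a1 UMIs. The paired chains on chromosome X, Col4a5 (141475385 to 141689234, plus strand) and Col4a6 (141165403 to 141474076, minus strand), were led by fibroblasts in both libraries. Col4a5 reached 227 CPM (164 to 307) and 271 CPM (190.0 to 376) there and Col4a6 124 CPM (78.9 to 187) and 90.4 CPM (46.7 to 158). The remaining pair, Col4a3 and Col4a4, known from kidney and lung basement membrane, was low everywhere. Of Col4a4, 18 and 6 of 35 and 15 UMIs were in tanycytes, although mural cells had the higher wild type CPM and 1 UMI put endothelial cells first in the double heterozygote. Col4a3 had 16 and 5 UMIs in all, with fibroblasts first in wild type and mural cells, by 1 UMI, in the double heterozygote.

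Type VI followed the fibroblasts. Col6a1 and Col6a2, which assemble with Col6a3 into a monomer, were both highest there. Col6a1 reached 244 CPM (178 to 326) and 332 CPM (241 to 445), with 83.3% and 81.5% of its UMIs in fibroblasts. Col6a2 reached 184 CPM (127 to 257) and 234 CPM (159 to 332), with 77.3% and 86.1%. Col6a3 was also led by fibroblasts but with only 6 and 9 UMIs there. The short-chain network collagens parted ways. Col8a1 was led by fibroblasts, with 18 and 21 UMIs, whereas Col8a2 (ENSMUSG00000056174, plus strand of chromosome 4, 126286793 to 126314330) was led by ependymal cells, at 134 CPM (94.99 to 183) and 75.7 CPM (39.1 to 132) from 39 and 12 of its 54 and 13 UMIs.

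Ependymal cells divided into a group led by the cilium genes Sntn and Ccdc153 and a group led by Ptn, Crym and Frzb. The ciliated group, 118 and 59 cells, held 33 and 11 of the Col8a2 UMIs, 21 and 8 of the Col5a3 UMIs and 13 and 5 of Col6a5, a type VI chain with 19 UMIs in all, 18 of them in ependymal cells. The other group, 63 and 48 cells, held 6 and 1, 4 and 2 and 0 and 0 UMIs of these chains and most of the class's Col23a1, 49 and 20 UMIs against 5 and 2. Its leading genes Crym and Frzb also led the larger tanycyte cluster. The groups were clustered without collagens, but their boundary was drawn in these same cells.

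Of the fibril-associated chains, Col9a3 was led by precursors and Col9a2, Col12a1 and Col16a1 by fibroblasts. The 9 chains of the family summed to 327 and 195 CPM in precursors, 254 and 173 CPM in fibroblasts, 96.3 and 83.2 CPM in mural cells, 64.5 and 109 CPM in tanycytes and 47.7 and 36.7 CPM in neurons. Col9a3 (ENSMUSG00000027570, plus strand of chromosome 2, 180597790 to 180622189), 1 of 3 chains of the cartilage collagen type IX, reached 224 CPM (178 to 279) and 159 CPM (84.5 to 271) in precursors from 81 and 13 UMIs. A precursor cluster of 20 and 14 cells led by Gpr17, Enpp6 and Bmp4, genes of cells committed to become oligodendrocytes, carried 48 and 5 of those UMIs, or 769.9 and 396 CPM. The largest precursor cluster, of 224 and 58 cells with Pdgfra among its leading genes, carried 32 and 5, or 116 and 95.1 CPM. In the small cluster 11 of the 48 wild type UMIs came from 1 cell, and the 5 double heterozygote UMIs lay in 2 of 14 cells. The intervals of these clusters were apart in wild type, at 568 to 1021 and 79.2 to 164 CPM. In the double heterozygote they overlap, at 128 to 923 and 30.9 to 222 CPM. Col9a2, the partner chain, stood at 97.4 and 30.1 CPM in fibroblasts, with 43 and 29 UMIs in neurons at 22.3 and 15.2 CPM. Col9a1 had 19 UMIs in all. Col12a1 and Col16a1, which bind fibril surfaces, had 12 and 7 and 17 and 11 fibroblast UMIs.

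Transmembrane collagens made up most of the tanycyte total. Col23a1 (ENSMUSG00000063564, plus strand of chromosome 11, 51289920 to 51583918) had 444 and 125 tanycyte UMIs, or 734 CPM (668 to 806) and 717 CPM (597 to 854), and tanycytes held 77.9% and 71.8% of all its UMIs. Col25a1 (ENSMUSG00000058897, plus strand of chromosome 3, 130131501 to 130599877), whose shed ectodomain was first isolated from amyloid plaques and which is needed for motor innervation of muscle, had 301 and 131, or 498 CPM (443 to 557) and 751 CPM (628 to 892), with 80.9% and 72.4% of its UMIs. For Col23a1 the next classes were fibroblasts and ependymal cells, at 222 and 128 CPM and 185 and 139 CPM. Within ependymal cells it stood at 422 and 291 CPM in the group led by Ptn, Crym and Frzb and at 28.4 and 22.3 CPM in the ciliated group. For Col25a1, neurons had 62 and 44 UMIs at 32.1 and 23.0 CPM. At a fixed 500 UMIs per cell, Col23a1 was found in 28.8% and 23.7% of tanycytes, which left out 39 and 16 shallower ones. In oligodendrocytes thinned alike it was found in 1 of 246 and 0 of 115 cells, and the second count allows a share of up to 3.16% by the exact interval. A UMI of both chains was read in 89 of 372 and 33 of 147 tanycytes. Of the other transmembrane chains, Col13a1, a component of cell adhesions and the neuromuscular junction, had 40 and 34 of its 61 and 43 UMIs in fibroblasts, although 6 UMIs, 5 of them in 1 cell, put double heterozygote endothelial cells higher. Col17a1, a hemidesmosome protein of skin, had 12 UMIs, most of them in the epithelial class.

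The 2 tanycyte clusters used these chains unequally, in the same order in both libraries. One cluster was led by Scn7a and held Dio2, the enzyme that activates thyroid hormone, among its leading genes. Col23a1 there had 260 UMIs in 73 of 93 cells, or 1185 CPM (1045 to 1338) in wild type. In the double heterozygote it had 95 UMIs in 35 of 53 cells, or 1071 CPM (867 to 1310). The cluster led by Crym and Frzb had 184 UMIs in 111 of 279 cells, or 478 CPM (411 to 552) for wild type cells and 30 UMIs in 21 of 94 cells, or 350.2 CPM (236 to 500) for double heterozygote cells. Col25a1 separated them further. The Dio2 cluster had 249 UMIs in 78 of 93 cells, or 1134 CPM (998 to 1284) for wild type cells and 114 UMIs in 38 of 53 cells, or 1285 CPM (1060 to 1544) for double heterozygote cells. In the Frzb cluster the values were 52 UMIs in 30 of 279 cells, or 135 CPM (101 to 177) and 17 UMIs in 7 of 94 cells, or 198 CPM (116 to 318). For both chains and in both libraries the intervals of the 2 clusters do not overlap. These clusters come from the same cells, so this describes them and tests nothing. Median depth was 1887.5 UMIs per cell in the Dio2 cluster and 1096 in the Frzb cluster, which CPM scales for.

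**Figure D3:**
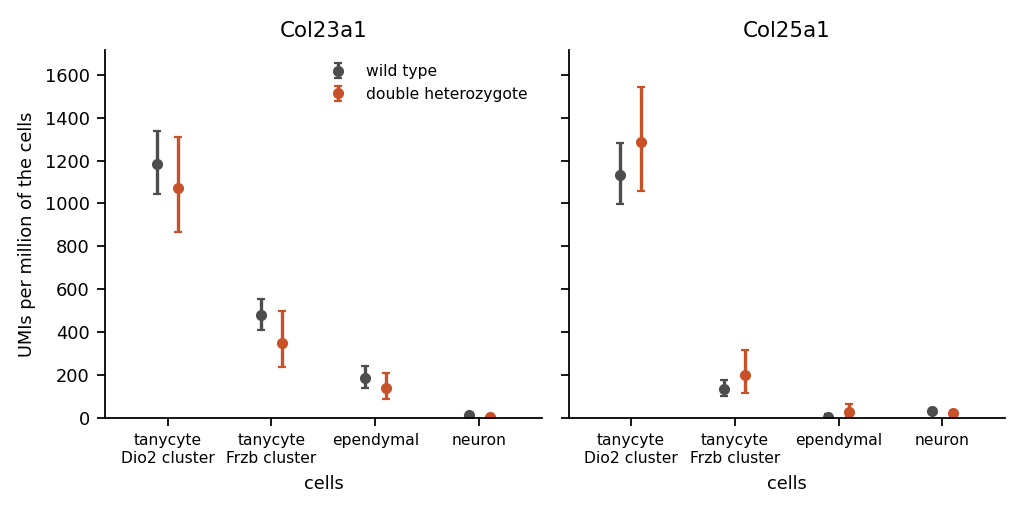
Col23a1 (left) and Col25a1 (right) in UMIs per 1000000 UMIs of the 2 tanycyte clusters, all ependymal cells and all neurons, for wild type (grey) and double heterozygote (orange) with exact 95% Poisson intervals. Both chains are highest in the Dio2 cluster, and ependymal cells hold Col23a1 at 185 and 139 CPM but Col25a1 at 3.43 and 25.2. Most of that ependymal Col23a1 lies in the group led by Ptn, Crym and Frzb, not in the ciliated group.

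Upstream sequences of both tanycyte chains and of Col3a1, a chain clearly led by fibroblasts that also differed most between the libraries among such chains, are shown to set the windows of chains used by different classes side by side. RefSeq's table (GRCm38.p6) matched 34 of the 43 members. Each run is the 250 bases before the table's transcript start, 5′ to 3′ on the strand of the gene, with capitals for matches on either strand to 4 short motifs. These were the CCAAT box, the GC box with the letters GGGCGG, the TATA box with the letters TATAAA and a homeodomain core with the letters TAATTA, and the matches did not overlap each other. No window overlaps an annotated exon; the Col3a1 and Col23a1 windows lie outside annotated genes, and the Col25a1 window lies in an intron of the longer annotated Col25a1 gene.
Col23a1 (chr11:51289670-51289919, plus strand): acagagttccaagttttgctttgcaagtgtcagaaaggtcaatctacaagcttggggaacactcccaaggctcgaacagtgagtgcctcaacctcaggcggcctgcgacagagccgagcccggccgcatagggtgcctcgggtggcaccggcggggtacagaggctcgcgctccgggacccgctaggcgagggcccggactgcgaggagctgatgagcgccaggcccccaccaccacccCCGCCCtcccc
Col25a1 (chr3:130180595-130180844, plus strand): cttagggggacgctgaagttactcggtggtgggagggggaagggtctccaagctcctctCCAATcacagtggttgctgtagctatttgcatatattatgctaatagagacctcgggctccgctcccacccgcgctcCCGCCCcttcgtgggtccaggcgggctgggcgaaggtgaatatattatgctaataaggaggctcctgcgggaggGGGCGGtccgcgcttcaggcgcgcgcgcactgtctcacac
Col3a1 (chr1:45311288-45311537, plus strand): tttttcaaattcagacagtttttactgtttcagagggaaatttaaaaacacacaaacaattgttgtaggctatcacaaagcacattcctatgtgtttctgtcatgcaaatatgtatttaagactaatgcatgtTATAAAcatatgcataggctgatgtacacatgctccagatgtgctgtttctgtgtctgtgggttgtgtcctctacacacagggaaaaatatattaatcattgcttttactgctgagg
The Col23a1 and Col25a1 windows are 66.0% and 60.4% G and C, the Col3a1 window 35.2%, and the median over 32851 promoters was 52.4%. Col23a1 has a GC box, Col25a1 a CCAAT box and 2 GC boxes, and Col3a1 a TATA box at 117 bases before the start. Among all promoters listed, 33.85% hold the CCAAT box, 32.74% the GC box, 12.37% the TATA box and 4.84% the homeodomain core, which none of these 3 windows holds. The Col25a1 window carries the 16 bases atatattatgctaata at 161 and again at 75 bases before the start. An exact repeat at least that long was found in 1.98% of all promoters. Each match is a description of letters and not a site.

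The remaining measured chains were fibroblast chains or low. Col15a1 (ENSMUSG00000028339, plus strand of chromosome 4, 47208161 to 47313167), which bridges basement membranes to fibrils, was led by fibroblasts, at 168 CPM (114 to 238) and 347 CPM (254 to 462), and fibroblasts held 75.6% and 86.8% of its UMIs. Col18a1, the source of endostatin, had 14 and 10 of 43 and 27 UMIs in fibroblasts, with 7 UMIs putting the small epithelial class higher in wild type. Col26a1 was led by fibroblasts on 9 and 6 UMIs. The 13 chains under 20 UMIs were Col2a1, Col6a4, Col6a5, Col6a6, Col7a1, Col9a1, Col14a1, Col17a1, Col19a1, Col20a1, Col22a1, Col24a1 and Col28a1. Among them, all 18 UMIs of Col19a1 were in neurons and all 8 of Col14a1 in mural cells. These concentrations rest on few UMIs and were picked out after the values were seen.

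Neurons showed little collagen, and different neuron clusters used different chains. Col25a1 was highest in the cluster led by Vip, at 75.1 and 76.1 CPM from 19 and 9 UMIs. Col11a1 in wild type was highest, at 165 CPM, in a cluster led by the noncoding RNAs Kcnq1ot1, Meg3 and Miat with a median of only 656 UMIs per cell, and the 48 double heterozygote cells of that cluster had none. Of the 18 wild type UMIs there, 6 came from 1 cell. The cluster led by Ppp1r17 held 19 and 9 Col11a1 UMIs and the one led by Cartpt, Gal and Pomc held 39 and 26. Col4a2 was spread over the clusters, with 4 and 12 UMIs in the Agrp and Npy cluster, or 43.5 and 53.9 CPM, and 8 and 3 in the low-depth cluster, or 73.5 and 75.7 CPM. Counts this low order the clusters only loosely.

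Between the libraries, summed fibroblast collagen was higher in the double heterozygote, and Col3a1 and Col15a1 had the highest ratios there. A chain was called past 2-fold when its ratio, double heterozygote over wild type, was over 2 or under 0.5 with at least 20 UMIs in the class. The ratio of all chains was 1.30 (1.20 to 1.41) in fibroblasts, from 1194 and 1114 UMIs. Col1a2 supplied 372 and 385 of these and Col3a1 110 and 176. Only Col1a2, Col3a1 and Col15a1 had an interval above 1, so the summed ratio does not describe every chain. Of 20 chains with enough UMIs, 2 were called higher, where 5.99% of 3173 genes were, and 4 were called lower, where 10.2% were. These counts come from few chains and were not tested. The median log2 ratio was 0.25 over the 20 chains and 0.01 over all genes tested in the class.

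Col3a1 had 110 UMIs in 53 of 155 wild type fibroblasts and 176 in 70 of 123 double heterozygote ones, a ratio of 2.23 (1.75 to 2.85). The most in 1 cell was 11 and 13 UMIs. At a fixed 500 UMIs per cell it was found in 17.9% and 41.6% of fibroblasts, with 10 shallower cells left out of each library, against 34.2% and 56.9% before thinning. In oligodendrocytes, thinned the same way, it was found in 0 of 246 and 0 of 115 cells, which allows shares of up to 1.49% and 3.16% by the exact interval. Col15a1 was the other chain called higher, at 2.07 (1.28 to 3.37). Col1a2 stood at 1.44 (1.25 to 1.67) and Col1a1 at 1.22 (0.979 to 1.52), and the interval of Col3a1 lies above both of theirs. The interval of Col1a1 holds 1.

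The next chains by count all had intervals that hold 1. Col4a1 stood at 1.25 (0.819 to 1.91), Col6a1 at 1.36 (0.878 to 2.11), Col4a5 at 1.19 (0.743 to 1.91), Col13a1 at 1.18 (0.727 to 1.92) and Col6a2 at 1.27 (0.755 to 2.13). Col8a1 at 1.62 (0.824 to 3.23), Col5a2 at 1.18 (0.582 to 2.38) and Col4a2 at 1.16 (0.608 to 2.19) were on the same side. The chains called lower were Col5a3, with 28 and 5 UMIs (ratio 0.249, 0.0750 to 0.652), Col9a2, with 18 and 4 (ratio 0.309, 0.0762 to 0.939), Col27a1, with 16 and 4 (ratio 0.348, 0.0847 to 1.08), and Col5a1, with 17 and 6 (ratio 0.491, 0.159 to 1.31). Only the first 2 of these have an interval below 1. Col23a1 was at 0.577 (0.308 to 1.04), Col4a6 at 0.727 (0.329 to 1.52), Col16a1 at 0.901 (0.381 to 2.04) and Col18a1 at 0.995 (0.395 to 2.41).

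**Figure D4:**
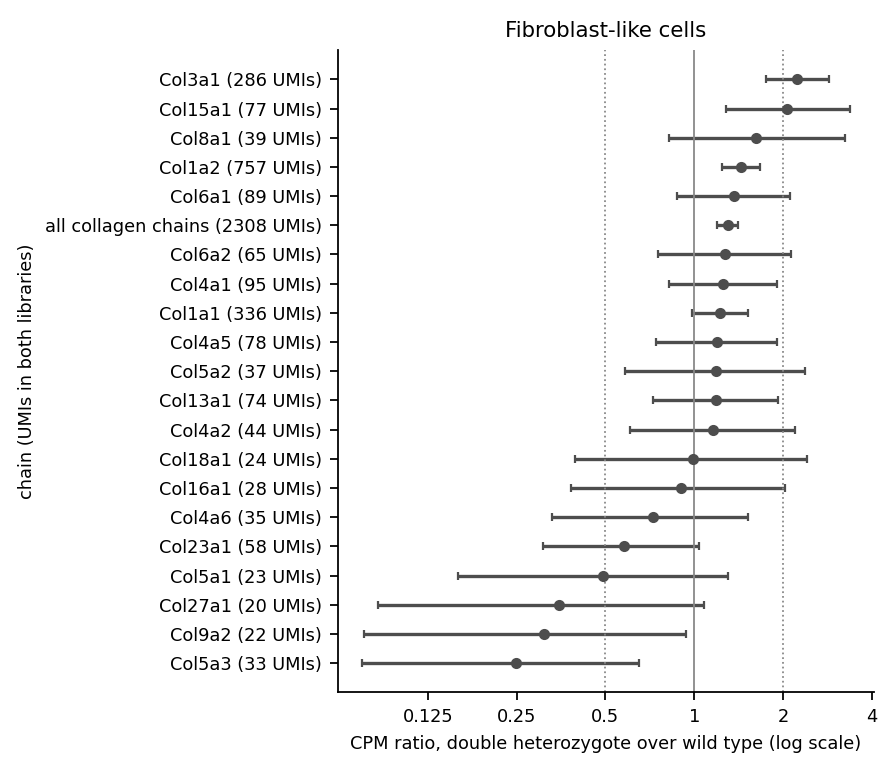
Ratio of CPM, double heterozygote over wild type, in fibroblasts for the 20 chains with at least 20 UMIs and for all chains summed, on a log axis with exact conditional 95% intervals; the solid line marks 1 and the dotted lines 0.5 and 2. Col3a1 and Col15a1 lie past 2, and the 4 chains past 0.5 have 20 to 33 UMIs each.

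The proteoglycans Dcn and Lum, which are also among the fibroblast markers, had ratios of 0.929 (0.893 to 0.966) and 0.979 (0.868 to 1.10). Dcn stood at 33700 and 31303 CPM in fibroblasts and Lum at 3627 and 3550 CPM. The 12 fibroblast markers summed to 45499.8 and 51412 CPM in the class, with 11 of them detected in each library. In the next class, mural cells, they summed to 2624 and 3703 CPM. In fibroblasts the summed list was higher in the double heterozygote while Dcn and Lum were not, so they do not stand for the other markers. The part of such marker levels in the collagen ratios was not tested.

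Tanycyte collagen was higher in the double heterozygote as a class, at 1.28 (1.13 to 1.44), but not clearly so within either cluster. The ratio was 1.12 (0.971 to 1.29) in the Dio2 cluster and 0.966 (0.742 to 1.24) in the Frzb cluster. The Dio2 cluster, which has more collagen, made up 25% of wild type and 36.1% of double heterozygote tanycytes. Col25a1 likewise stood at 1.51 (1.22 to 1.86) in the class, 1.13 (0.900 to 1.42) in the Dio2 cluster and 1.47 (0.797 to 2.58) in the Frzb cluster. Col23a1 stood at 0.976 (0.794 to 1.19), 0.904 (0.707 to 1.15) and 0.733 (0.481 to 1.08). Median depth per tanycyte was 1400.5 and 910 UMIs. Of 9 chains with enough UMIs in tanycytes, 1 was called higher, against 5.29% of genes, and 0 lower, against 11.7%. That chain was Col5a2, at 2.17 (1.06 to 4.30) from 24 and 15 UMIs, with 9 and 11 of them in the Dio2 cluster. The other 6 ran from 0.667 (0.200 to 1.76) for Col9a3 to 1.98 (0.889 to 4.22) for Col4a5, with Col4a4 at 1.16 (0.376 to 3.04), Col27a1 at 1.27 (0.575 to 2.61), Col11a1 at 1.58 (0.666 to 3.47) and Col1a2 at 1.73 (0.790 to 3.60), and all 6 intervals hold 1.

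Neuronal collagen was lower in the double heterozygote, at 0.765 (0.661 to 0.884). Of 9 chains, 3 were called lower, against 9.06% of genes, and 1 higher, against 2.68%. Col11a1 had 99 UMIs in 56 of 824 wild type neurons and 43 in 29 of 709 double heterozygote ones, a ratio of 0.439 (0.300 to 0.634). It was 0.525 (0.307 to 0.884) in the cluster led by Cartpt, Gal and Pomc, 0.633 (0.252 to 1.47) in the cluster led by Ppp1r17 and 0.409 (0.102 to 1.22) in the cluster led by Foxb1. The low-depth cluster led by Kcnq1ot1 had 18 and 0 UMIs, the Vip cluster 3 and 0, and in the opposite direction the cluster of Tac2 and Kiss1, of 16 and 24 cells, 0 and 4. Col23a1 had 21 and 6 UMIs (ratio 0.289, 0.0954 to 0.740) and Col9a3 16 and 7 (ratio 0.442, 0.154 to 1.14). Col8a1 was called higher on 7 and 17 UMIs, with an interval that holds 1 (ratio 2.46, 0.968 to 7.00), and 14 of the 17 were in the Cartpt, Gal and Pomc cluster, which had 1 in wild type. Col25a1 stood at 0.718 (0.476 to 1.07), Col9a2 at 0.682 (0.411 to 1.12), Col4a2 at 1.01 (0.660 to 1.55), Col4a1 at 1.44 (0.800 to 2.65) and Col12a1 at 1.46 (0.578 to 3.87). Neuron clusters were caught in unequal shares: the low-depth cluster led by Kcnq1ot1 made up 16.4% of wild type and 6.77% of double heterozygote neurons, and all collagen there stood at 689 and 580.2 CPM. Within the 7 neuron clusters the ratio of all chains ran from 0.556 to 0.997, and only the cluster of Agrp and Npy, with 14 and 43 cells, had an interval below 1.

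Oligodendrocyte precursors also had a lower total, at 0.519 (0.335 to 0.776), from 229 and 27 UMIs. Of 3 chains, Col11a2 was called lower, with 41 and 3 UMIs (ratio 0.322, 0.0639 to 1.01), against 14.1% of genes, and 0 were called higher, against 5.46%. Col9a3 stood at 0.707 (0.361 to 1.28) and Col11a1 at 0.629 (0.120 to 2.11). The total was 0.595 (0.338 to 0.985) in the Pdgfra cluster and 0.417 (0.148 to 0.953) in the Gpr17 cluster. Median depth per precursor was 1146 and 719 UMIs; the part of that depth in the ratio was not tested. Markers of the pars tuberalis summed to 55.4 and 5201 CPM in the precursor class, and epithelial markers to 13.9 and 537. In the double heterozygote, 424 of the 426 pars tuberalis marker UMIs and all 44 epithelial ones came from 1 cell, which had 8786 UMIs, 0 of them from precursor markers and 1 from collagen. Without it, a step chosen after seeing the data, the ratio of all chains was 0.560 (0.358 to 0.842) and that of Col11a2 0.361 (0.0715 to 1.13).

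Endothelial collagen differed most, at 3.55 (2.04 to 6.21), on 27 UMIs of 40 cells and 30 UMIs of 13 cells. Col4a1, the 1 chain with enough UMIs, had 10 and 16, a ratio of 5.11 (2.18 to 12.6), and was called higher, against 12.3% of genes higher and 18.5% lower. Mural collagen stood at 1.23 (0.905 to 1.68), and 0 of 3 chains were called in either direction, against 5.75% of genes higher and 10.3% lower. They were Col1a2 at 1.92 (0.964 to 3.85), Col4a1 at 1.63 (0.769 to 3.42) and Col4a2 at 0.728 (0.276 to 1.74). Ependymal collagen stood at 0.709 (0.549 to 0.910), again with 0 of 5 chains called, against 4.4% higher and 8.68% lower. All 5 were below 1, from 0.567 (0.270 to 1.10) for Col8a2 to 0.964 (0.420 to 2.09) for Col1a2, with Col5a3 at 0.736 (0.316 to 1.59), Col23a1 at 0.750 (0.435 to 1.25) and Col5a2 at 0.775 (0.294 to 1.85).

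Genes that make, process and bind collagen had many leading classes besides fibroblasts. As for the chains, the share of all genes led by each class is not given here. Of 21 genes for synthesis and folding, all measured, 4 were led by fibroblasts in both libraries and 12 had different leading classes. The most abundant were Sparc, a collagen-binding matricellular protein, Ppib, a proline isomerase led by precursors, and P4hb, a subunit of prolyl 4-hydroxylase. In fibroblasts their ratios were 1.72 (1.50 to 1.97), 1.50 (1.09 to 2.07) and 1.19 (0.789 to 1.79). Serpinh1, the collagen chaperone of the endoplasmic reticulum, was led by fibroblasts at a ratio of 1.34 (1.08 to 1.66); it lies outside the 3 most abundant and was named after its values were seen. None of the 10 genes of this list with enough fibroblast UMIs was past 2-fold, against 5.99% of 3173 genes higher and 10.2% lower.

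Cross-linking and propeptide removal had 8 measured genes of 12, with 3 led by fibroblasts. Pcolce, an enhancer of procollagen cleavage, and the cross-linking oxidase Loxl1 were among them, at 1.17 (0.901 to 1.53) and 1.07 (0.739 to 1.55), and the related Pcolce2 was led by oligodendrocytes. Of 7 small proteoglycans 5 were led by fibroblasts, Dcn, Lum and Bgn being the most abundant, with Bgn at 1.19 (0.964 to 1.47). Among the 5, Dcn, Lum and Ogn are also markers that named the fibroblast class, so their lead there is partly built in. Of 8 measured receptors only Ddr2 was led by fibroblasts. The integrin subunit Itgb1 was led by mural cells and Adgrg1, an adhesion receptor for type III collagen, by microglia. Ddr1, a tyrosine kinase that collagen activates, had different leading classes. Among 8 measured genes of matrix breakdown and its inhibitors, fibroblasts led 6, including the metalloprotease inhibitors Timp3 at 0.964 (0.831 to 1.12) and Timp2 at 1.05 (0.776 to 1.43), and mural cells led the protease Adamts1. Of 11 measured basement membrane partners, fibroblasts led 4, among them the linker Nid1 and the laminin chain Lama2, and endothelial cells led 4, among them the proteoglycan Agrn. These 5 lists had 3, 5, 2, 6 and 7 genes with enough fibroblast UMIs, in that order. Of these genes 0 were past 2-fold higher, against 5.99% of all genes tested in the class, and 1 was lower, against 10.2%: the laminin chain Lamb2 on 16 and 4 UMIs (ratio 0.348, 0.0847 to 1.08), named after its values were seen.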

How the data were processed

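Single cells from 1 pool of 7 wild type and 1 pool of 5 double heterozygote mice were profiled by Drop-seq. Per the submitters' processing notes the authors used bcl2fastq, Picard, STAR 2.6.0b, Seurat 3 and mm10; the annotation, strand and multimapping settings: not given in the sources used here. The deposited raw tables hold UMI counts; of the deposited merged table, in natural log units, only the barcodes served, for 1 alternative. Here, cells of 300 genes or more and no more than 20% mitochondrial UMIs (395 and 316 barcodes left out) were clustered with scanpy 1.11.5 and leidenalg 0.10.2 on Python 3.11.15 (2000 variable genes, 30 components, 20 neighbours, resolution 1), collagens left out. Clusters were named from marker lists; limits for naming, ties settled by the 10 leading genes, were set after the data were seen. The tanycyte cluster led by Crym and Frzb, 373 of 519 tanycytes, was such a tie, with a tanycyte score of 2.65 and an ependymal one of 2.55; the score is the mean log2 of marker CPM over the median cluster, with 20 added to both. Scrublet marked 17 of 3889 cells (0.437%), too few for a working caller, so doublets may remain. Poisson, conditional binomial and Clopper-Pearson intervals are at 95%. A simulated check drew Poisson counts, as the intervals assume. It cannot show how they hold where single cells supply many UMIs. Every chain with 20 UMIs was named; between libraries, the 10 most counted in fibroblasts and every chain past 2-fold; of each partner list, the 3 most abundant. Members and lists were chosen with earlier results of these data known. Of the members, 15 overlap another gene on the same strand and 17 on the other, so reads there are uncertain. Alternatives were cell filters, doublet removal, class assignment, scaling and UMI minimums.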

Additional observations from a re-analysis of the deposited data

Results flagged for a closer look

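Collagen summed over all chains lay on opposite sides between classes when the libraries were compared, which is what singled these values out. The log2 ratio, double heterozygote over wild type, was 0.38 in fibroblasts, 0.36 in tanycytes and 1.83 in endothelial cells, and it was -0.50 in ependymal cells, -0.39 in neurons and -0.95 in oligodendrocyte precursors. Differences between classes were not tested, since each genotype is 1 pool. The endothelial value rests on 27 and 30 UMIs, and the tanycyte value was 0.16 and -0.05 within the 2 tanycyte clusters. Among the neuron clusters, only that of Agrp and Npy had an interval of the summed ratio below 1. The precursor value rests on 229 and 27 UMIs, and the ependymal value mixes 2 groups that use different chains.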

How the results depend on the processing

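The summed fibroblast log2 ratio of 0.38 ranged from 0.29 to 0.45 over its alternatives, and the mural one from 0.13 to 0.40. The tanycyte log2 ratio of 0.36 was 0.15 with cells classed by their own marker score, 0.16 in the Dio2 cluster alone and -0.050 in the Frzb cluster alone, the last 2 chosen after seeing the data. With the marker score the tanycyte class held 2486 and 2750.0 CPM of collagen, and with at least 500 genes per cell 1556 CPM in wild type; the cause was not tested. Chains past 2-fold in fibroblasts numbered 13 with a minimum of 1 UMI and 2 with a minimum of 50, against 6, because other chains enter or leave the count. Chains led by fibroblasts ranged from 11 to 18. Calls past 2-fold were lost under at least 1 alternative for Col15a1 (log2 0.96) and Col5a1 (-0.38) in fibroblasts, Col9a3 in neurons (-0.82) and Col5a2 in tanycytes (0.26). Of the values of single chains and further classes, 276 stayed within their counting intervals and 2 moved. These intervals are wide at low counts and most alternatives reuse the same UMIs, so staying within them says little. Of the values of the main results, 118 stayed within their interval or, for counts of chains, near the main count. Another 7 moved, and 1, the tanycyte ratio in the Frzb cluster alone, changed sign. No paired analysis was possible because each genotype is 1 pooled library. Most of the 43 chains had fewer than 20 UMIs within each class: 20 chains reached that number in fibroblasts and 9 each in tanycytes and neurons.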
